A study of Mus musculus with 26 samples.

Results

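The 150 transcripts described here carried the fewest ribosome footprints for their RNA in normal mouse striatum. They were chosen by the values themselves: of 8535 transcripts listed for all 3 genotype comparisons, 5996 had an RNA-Seq mean of at least 200 in every control or wild-type (WT) group. After 194 with symbols starting Zfp, Rpl, Rps or Nduf were left out, 5802 were ranked by translation efficiency (TE), the log2 of the footprinting mean over the RNA-Seq mean, averaged over the 3 control or WT groups. The 150 lowest are the members, and the other 5652 are the transcripts they are set beside. All 150 have distinct symbols.

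The tissue was caudate putamen, taken from mice 3 months old and pooled by 3 animals of mixed sex. Footprinting sequences the mRNA fragments that ribosomes shield from RNase I, and RNA-Seq here reads total RNA freed of rRNA. Transgenic mice carried G2019S LRRK2 (GS LRRK2 TG), whose kinase is more active, or G2019S/D1994A LRRK2 (GS/DA LRRK2 TG), whose kinase is dead. Both were high copy number Tet-off transgenes driven by CaMKII-tTA, so that only cells with that driver express them, and doxycycline feed held them off until weaning. Their controls were non-transgenic (non-TG control) mice, with 3 footprinting and 3 RNA-Seq libraries against 2 and 2 of each transgenic genotype. The third comparison set LRRK2 KO against WT mice, each with 3 footprinting and 2 RNA-Seq libraries. The deposited tables give 1 mean per group and assay without an error, and by the labels both transgenic comparisons draw on the same non-TG control libraries. Which of the 3 labelled libraries each mean holds is not stated, so how far the controls are shared is unknown.

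A ribosome reaches the start codon of most mRNAs by scanning the 5′UTR from the cap. Base-paired structure, upstream start codons and bound proteins in that stretch slow or divert scanning, so that an abundant mRNA can yield little protein. In neurons many mRNAs also travel to dendrites and axons, where they are held back until a signal releases them.

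Markers of the dissected tissue were present. Of 18 spiny neuron markers, 16 were ranked, led by Ppp1r1b, the dopamine-regulated phosphatase inhibitor DARPP-32, at 52818 normalised RNA-Seq reads per kb of coding sequence. The cortical marker Slc17a7, a vesicular glutamate transporter, stood at 1057 on that scale, and no endothelial or mural marker was ranked. As the tissue is bulk, fewer cells holding a transcript and less of it per cell cannot be told apart. Lrrk2 itself, not a member, had a control or WT TE of -0.58, and its footprinting mean was 545 in WT and 126 in LRRK2 KO mice, with RNA-Seq means of 1006 and 347. Footprinting of Lrrk2 was 2524 in control and 5186 in GS LRRK2 TG mice, and 1335 in control and 6017 in GS/DA LRRK2 TG mice. Its RNA-Seq was not higher in either, with means of 2105 and 1882 and of 2897 and 2721. These RNA-Seq means fix no direction, since single libraries held 3550 and 214 reads in GS LRRK2 TG mice, 404 and 5038 in GS/DA LRRK2 TG mice and 5233 and 560.2 in non-TG controls.

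Some libraries stood apart. TE in the genotype groups and the genotype differences are therefore also given for single libraries, while shares of gene lists and most transcript features rest on the group means. Reads of single libraries could be recovered for 10 of the 12 group means, each a mean of 2 libraries, and they spanned 2835138 to 17030071 reads in coding sequences per library. The footprinting means of WT and LRRK2 KO mice thus hold 2 libraries each. The remaining labelled library of each is described in the paper as a further experiment. The non-TG control means of the GS LRRK2 TG table could not be taken apart. The libraries of a pair are called deeper and shallower by these reads. In the transgenic tables the RNA-Seq libraries of a group differed with base composition. In GS LRRK2 TG mice, the level of a transcript relative to its mean had a rank correlation with coding GC of -0.772 in the deeper and 0.793 in the shallower library, across transcripts, which are not independent replicates. Non-TG controls gave -0.764 and 0.772 in the same order, and GS/DA LRRK2 TG mice gave 0.806 and -0.795. In WT mice neither RNA-Seq library leaned on coding GC in this way (-0.0604 and -0.0528), but the shallower one held less RNA of every member, as given with the LRRK2 KO comparison. WT footprinting libraries did lean, with 0.611 in the deeper and -0.509 in the shallower, though the members' medians there were only 0.03 and -0.11. LRRK2 KO libraries leaned as well, with -0.172 in the deeper and 0.332 in the shallower RNA-Seq library. Their footprinting libraries had 0.176 and -0.316, so the LRRK2 KO comparison is not free of base composition.

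Control TE of the members ran from -4.41 to -2.23 with a median of -2.64, beside a median of -0.24 for the others. These values made the choice and are a description. Ranked within the control of 1 comparison alone, 141 of the members were among the lowest 150 for the GS LRRK2 TG control, 130 for the GS/DA LRRK2 TG control and 117 for WT, and 97 were so in all. For 85.3% of members the 3 control values lay within 1 log2 unit of each other. Members were not rare RNAs: their median RNA-Seq mean was 1703 normalised reads, against 860.0 for the others. The rule used these RNA-Seq means, as a minimum and as the divisor of TE, so this too is a description. Footprints were fewer, down to a control or WT mean of 29.5 for Galnt11 in WT mice, and 22 members had a footprinting mean of at least 2 times the authors' read minimum in every group.

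The lowest TE belonged to Map3k10 (uc012fgl.1, chr7:28441394-28459617, build mm9), a mixed-lineage kinase upstream of JNK. WT libraries held 70.9 and 64 normalised footprinting reads of it, against 2104 and 1330 RNA-Seq reads. In non-TG control mice they held 196 and 238 footprinting reads, against 1170 and 6013 RNA-Seq reads in the deeper and the shallower library. Its footprints thus varied little between libraries of a group while its RNA in the transgenic tables did, and the RNA exceeded the footprints in every library recovered. Pkd1 (uc008awv.1, chr17:24686895-24733459), which encodes the membrane receptor polycystin 1, had a TE of -4.15. Its WT footprinting reads were 55.3 and 36 beside RNA-Seq reads of 1536 and 733. The unnamed locus 6030419C18Rik had the same TE of -4.15.

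Nrsn1, which encodes neurensin, a membrane protein of neurites, had a TE of -4.02, with its lowest value in WT mice (-5.41) and higher ones in both non-TG control means (-3.54 and -3.13). Rasl10b, a Ras-like small GTPase, stood at -3.73, and Mllt6, a chromatin protein known as a fusion partner of MLL in leukaemia, at -3.70. The value of Rasl10b leaned on 1 RNA-Seq library in the non-TG controls, where the deeper and the shallower held 297 and 4523 reads beside 226 and 281 footprinting reads; WT libraries held 1185 and 689 beside 71.6 and 38.6. Spnb3 combined a TE of -3.61 with much RNA, and its product, beta-III spectrin, lies beneath the membrane of neurons. Next came Csnk1g2, a casein kinase, at -3.61, and Atxn7l3, a subunit of the deubiquitinating module of the SAGA coactivator, at -3.54. Cdk16, a kinase of the cyclin-dependent family found in neurons, stood at -3.53. Lrrc10b, a leucine-rich repeat protein, had -3.41, and Dnajc14, a membrane-bound co-chaperone, had -3.38. Further protein kinases lie among the members, among them Map3k11, Map3k3, Tesk1, Pak6, Mast2, Brsk1 and Tnk2; this grouping was made after the values were seen.

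At the edge of the choice, the last members included Fastk at -2.24 and Agap2, mKIAA1386 and Ankrd12 at -2.23. Just outside lay 6430598A04Rik at -2.23, a transcript whose symbol was altered to a date, Bai2 and Hcn2 at -2.22, and Akt1 at -2.20. Ankrd12, which encodes a nuclear ankyrin-repeat protein, had nearly all its non-TG control RNA in 1 library. The deeper library held 25533 reads of it and the shallower 129.7, while its WT libraries held 512 and 297. Its TE was -3.09 and -3.34 in the non-TG control means and -0.24 in WT mice, the highest WT value of any member. Arhgap10 (-2.74, -3.09 and -1.21 in the same order) and mKIAA1386 (-2.56, -2.85 and -1.28) showed the same split.

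Of the gene lists examined, mRNAs known to be carried into neurites held the largest share of members: 7 of 13 ranked (53.8%), where members are 2.59% of all ranked transcripts. The median TE of the 13 was -2.26. All gene lists were drawn up with earlier results of these data known, so their shares of members are descriptions and no test of the lists. Ppp1r9b, or spinophilin, which anchors protein phosphatase 1 in dendritic spines, had -3.29. Shank1, a master scaffold of the postsynaptic density, had -3.22, and Ddn, the dendritic protein dendrin, had -3.12. Dlgap3, a scaffold that links PSD-95 to Shank proteins, stood at -3.01 and Psd, an exchange factor for Arf6, at -2.37. Kif5a, a kinesin heavy chain that moves cargo along axons and dendrites, stood at -2.27, and Dlg4, which encodes PSD-95, at -2.26. These 7 joined low TE to much RNA, except Shank1: per kb of coding sequence, the control RNA-Seq level was 6863 for Dlg4, 5975 for Ddn, 5564 for Kif5a and 5002 for Ppp1r9b, but 209 for Shank1. Low TE did not hold for the whole list, since Arc stood at 0.25, Cplx2 at 0.37 and Actb at 0.84.

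Single libraries varied, and most in the RNA-Seq of the transgenic tables. WT footprinting libraries held 604 and 504 reads of Ppp1r9b (chr11:94852349-94868213) and 660.4 and 506 of Ddn. The WT RNA-Seq libraries held 7406 and 4164 reads of Ppp1r9b and 6671 and 4077 of Ddn. RNA exceeded footprints in every library pair recovered, and in both genes the shallower WT RNA-Seq library was the lower one. In the deeper and the shallower non-TG control library, RNA-Seq reads were 11062 and 22870 for Ddn, 2559 and 17243 for Dlgap3, and 5598 and 15305 for Psd. For Shank1 they were 168 and 1912, beside 175 and 203 footprinting reads, so that its low TE was absent from the deeper libraries. The other members with most RNA were Agap2, a GTPase-activating protein of Arf and the brain form of PIKE, Thra, the thyroid hormone receptor alpha, and Chd3, a chromatin remodeller of the NuRD complex, with TE of -2.23, -2.27 and -2.84.

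Ferritin mRNAs formed a further group. Of 8 ranked transcripts on the list of iron-regulated genes, 3 were members (37.5%): Fth1, the ferritin heavy chain, at -2.48, Ftl2 at -2.44 and Ftl1, the light chain, at -2.29. Fth1 was the most abundant RNA among the members, with 40076 normalised RNA-Seq reads per kb of coding sequence in the controls, and its WT libraries held 1456 and 1448 footprinting reads against 13297 and 7011 RNA-Seq reads. In both transgenic groups and in the non-TG controls recovered, 1 RNA-Seq library held nearly all reads of Ftl2. Non-TG control libraries held 10.7 and 4022 RNA-Seq reads of it in the deeper and the shallower library, and 90.1 and 752 footprinting reads, so that footprints exceeded RNA in the deeper ones. WT libraries were nearer each other, with 1635 and 787 RNA-Seq reads and 194 and 238 footprinting reads. Ftl1 and Ftl2 resemble each other so closely that reads may be assigned to either, and Ftl2 has no annotated coding transcript. Tfrc, the transferrin receptor, which carries its iron-responsive elements in the 3′UTR, lay at the other end of the list at 0.88. A loop that binds iron regulatory proteins is known in the 5′UTR of ferritin mRNAs. A search of sense strands for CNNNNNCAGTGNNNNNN, with the 5 bases after the C able to pair with the last 5 and G·T pairs allowed, found it in 3 of 136 members with an annotated 5′UTR (2.21%) and in 4 of 5239 others (0.0764%). The matches in the ferritin genes and in Vti1b, a SNARE protein of endosomes, are shown because they are all the matches in members. Capitals mark the loop, CAGTGN. A match is a description and not a site.
Fth1, chr19:10057222-10057250, plus strand, mm9: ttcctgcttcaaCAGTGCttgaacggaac
Ftl1, chr7:52715149-52715177, minus strand, mm9: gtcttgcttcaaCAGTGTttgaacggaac
Vti1b, chr12:80273393-80273421, minus strand, mm9: gaggtgcggctgCAGTGAtggcttcgggg

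Atf4, the transcription factor of the integrated stress response, whose upstream frames hold its translation down in unstressed cells, had a TE of -3.36. It was the only member among 5 ranked genes of the list of upstream frames and stress response, where Eprs stood at 0.26. Its WT libraries held 75.5 and 89.3 footprinting reads against 869 and 380.1 RNA-Seq reads. Upstream ATGs were common among the members. At least 1 was found in 115 of 136 members with an annotated 5′UTR (84.6%), in 2612 of 5239 others (49.9%) and in 47 of the 141 with a 5′UTR among the 150 most efficient transcripts (33.3%). At least 3 were found in 42.6% of members and 17.4% of others. In 77.2% of members and 42.6% of others such a frame closed before the start codon. Members had longer 5′UTRs, with a median of 287 nt against 183 in others and 232 in the most efficient 150. The shares were therefore also taken within lengths. Up to 100 nt, 46.7% of 15 members and 15.9% of others had an upstream ATG, and from there to 200 nt, 73.5% and 39.3%. From 200 to 400 nt the shares were 91.7% and 67.1%, and beyond 400 nt 39 of 39 members and 88.8% of others had one. At every length the share was higher in members. Taking the fewest upstream ATGs over the coding transcripts of each gene gave 71.8% and 35.6%. Closed frames of at most 30 bases in members named here are shown as examples of what was counted, with the upstream ATG and its stop codon in capitals. Drd2, the dopamine receptor of the indirect pathway, was the only spiny neuron marker among the members, at -2.30. Its non-TG control RNA-Seq reads were 1778 in the deeper and 8051 in the shallower library, beside 1248 and 1564 footprinting reads.
Atf4, chr15:80086012-80086023, plus strand, mm9: ATGgcgtatTAG
Drd2, chr9:49148819-49148827, plus strand, mm9: ATGgctTGA
Pkd1, chr17:24687188-24687205, plus strand, mm9: ATGcgcgggctgcgcTGA
Map3k10, chr7:28459532-28459561, minus strand, mm9: ATGggggccgcccacgcgttcctcgcgTGA

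Folding energy of the 5′UTR, which the rule did not use, was lower in members. The authors gave it in kcal/mol, as the lowest over the isoforms of a gene, and lower means more stable structure. The median was -162 in members, -97.2 in the others and -93.8 in the most efficient 150. The gap of members to others, -64.7, kept its sign but ranged from -77.4 to -30.9 when members were chosen by single control or WT libraries. The middle of the members ran from -244 to -90.9 by quartiles, and that of the others from -186 to -44.2. Below -250 kcal/mol lay 24.7% of members and 14.7% of others, and above -20 lay 2.67% and 10.8%. Energy falls with length, and within lengths the medians were -79.6 and -32.5 up to 100 nt, -109 and -66.1 up to 200 nt, -151 and -126 up to 400 nt, and -269 and -223 beyond. At each length members had the lower median. Over all ranked transcripts the rank correlation of energy with TE was weak (0.2), and it was not graded throughout. With the ranked transcripts cut into 10 groups by TE, the members' median of -162 was no lower than the -164 of the whole lowest group, and the most efficient group, at -85.4, did not lie above its neighbours. These are descriptions across transcripts, with no test, and the parts that structure, length and upstream ATGs have in low TE were not tested.

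Single members lay at both ends. Mbtps1, the site-1 protease that releases membrane-bound transcription factors, had -1398 kcal/mol and Pkd1 had -1068. Psd had -867, Flna, the actin cross-linker filamin A, had -790.0 and Bzrap1, a presynaptic protein that binds RIM, had -781. Other members had little predicted structure. Map3k3, a kinase of the MAPK cascade, had -0.6 kcal/mol with a TE of -2.44, and Msl1, a subunit of a histone acetyltransferase complex, had -9.3 with -2.58. In the annotation used for length, the Map3k3 transcript has an upstream ATG 213 bases before its start codon, so its energy may refer to another isoform. Prkrir had -11.6 and Rgl1, an exchange factor for Ral, had -37.8.

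**Figure D1:**
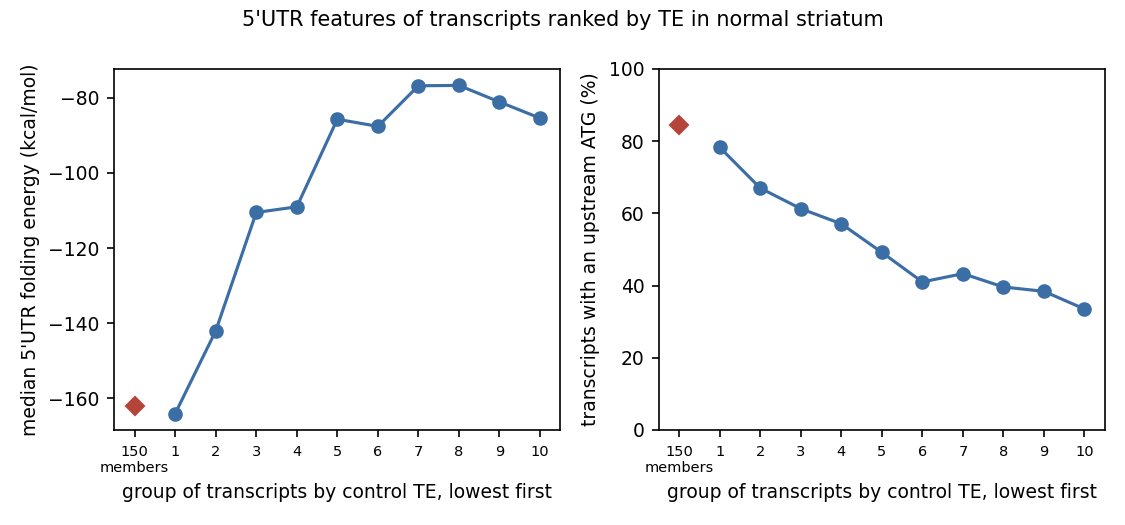
Median 5′UTR folding energy in kcal/mol (left) and share of transcripts with an upstream ATG in percent (right) for 10 groups of the ranked transcripts by control TE, with the 150 members as red diamonds. Energy runs from -164 in the lowest group to -85.4 in the highest, and the upstream ATG share from 78.3% to 33.5%.

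The rest of the transcript differed as well. Coding sequences had a median of 1983 nt in members, 1587 nt in others and 1206 nt in the most efficient 150, and their GC content was 55.9%, 53.1% and 47.3%. The 3′UTRs were shorter, with 739, 988 and 2065 nt, and richer in GC, with 51.3%, 45.2% and 37.5%. A purine 3 bases before the start codon with G right after it was found in 37.1% of members and 45.1% of others. The most efficient 150 had 40.6%, also below the others. The relation of TE to coding GC depends on the RNA-Seq library in the transgenic tables: across ranked transcripts the rank correlation of TE with coding GC in GS LRRK2 TG mice was 0.245 with the deeper footprinting and deeper RNA-Seq library and -0.702 with the shallower RNA-Seq library. WT mice gave -0.11 to -0.544 over their library combinations. Features could be matched to 143 of the 150 members (95.3%). Chromosomes 11, 7 and 5 held the most members, 23, 16 and 13, beside 486, 377 and 357 of the others.

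Other lists held few members or none, where members are 2.59% of all ranked transcripts. In lists this short a count of 0 lies near that share and shows no lack of members. Zinc finger genes outside the Zfp series had 3 of 54 (5.56%), namely Zc3h7b, Zbtb17 and Zbtb22, and unnamed loci had 9 of 288 (3.12%). No member was found among 34 splicing regulators, 34 subunits of cytochrome c oxidase, complex III and ATP synthase, 20 elongation factors and other TOP mRNAs, 15 ubiquitin-like proteins, 13 immediate early genes, 9 histones, 8 selenoproteins, 7 polyamine genes and the 1 long noncoding RNA ranked, Meg3 at -1.54. Among markers of other cells, none of 2 cortical neuron, 8 astrocyte, 10 oligodendrocyte, 3 oligodendrocyte precursor, 2 microglia and 4 choroid plexus, ependymal and blood genes was a member. TE of spiny neuron markers reached from -2.30 for Drd2 to 1.30 for Gad2, a GABA-making enzyme. Adora2a, the adenosine receptor found with Drd2 in the same neurons, stood at -1.64.

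The members were also at the bottom in the genotype groups, whose columns did not choose them. These columns are no independent check, since differences between RNA-Seq libraries recurred in control and genotype. Across ranked transcripts, the deeper-to-shallower differences of both groups had a rank correlation of -0.981 in the GS/DA table. In the LRRK2 KO table it was 0.703. How much of the members' low TE recurred for this reason was not tested. The median TE of members was -2.72 in GS LRRK2 TG, -2.43 in GS/DA LRRK2 TG and -3.24 in LRRK2 KO mice. The others had -0.14, -0.01 and -0.59. All 150 lay among the lowest 580 in both transgenic groups, and 146 did in LRRK2 KO mice. Among the lowest 150 were 127 in GS LRRK2 TG, 136 in GS/DA LRRK2 TG and 118 in LRRK2 KO mice. With 1 footprinting and 1 RNA-Seq library at a time, the gap to the others ranged from -2.94 to -2.19 in GS LRRK2 TG, from -2.81 to -1.93 in GS/DA LRRK2 TG and from -2.60 to -2.40 in LRRK2 KO mice. The median of members thus lay below that of the others in every genotype and library combination recovered, though the gap moved with the RNA-Seq library. Not every member did: with 1 library of each assay, 62 to 117 members were among the lowest 150 of a genotype group. In GS LRRK2 TG mice 144 of 149 members lay below the median of the others, and single ones turned over, such as Ankrd12, with 1096 footprinting reads over 50.4 RNA-Seq reads in the shallower libraries. Values in the controls, which the rule used, were -2.65, -2.36 and -2.92.

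**Figure D2:**
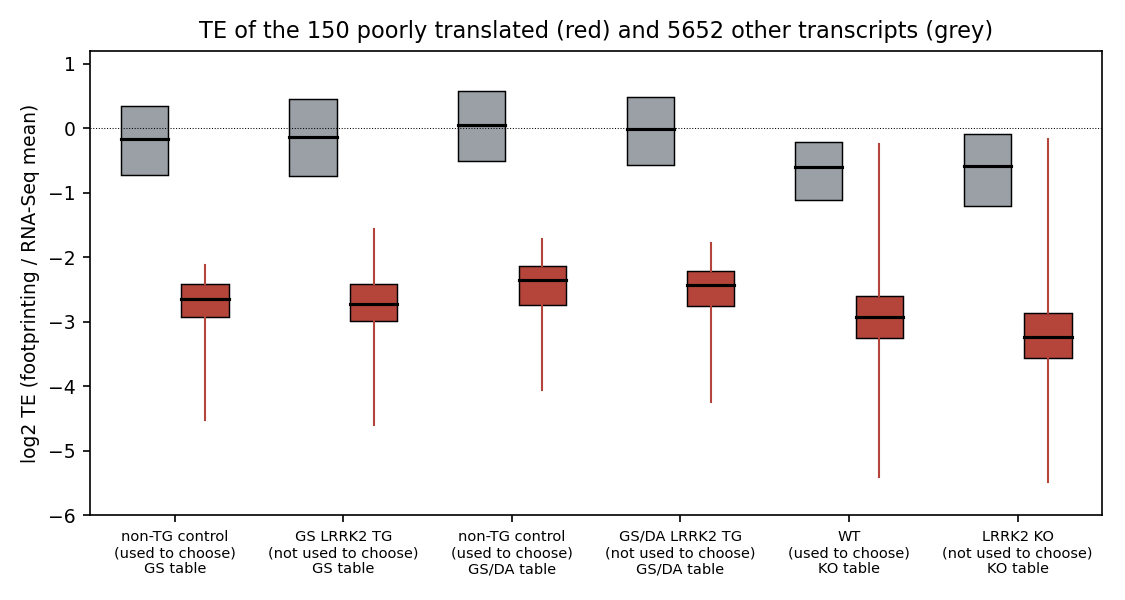
TE on the log2 scale in each group, with grey boxes for the 5652 other transcripts and red boxes for the 150 members. Boxes span the quartiles with a line at the median, and red lines reach the lowest and highest member. Member medians lie between -3.24 and -2.36 and medians of the others between -0.60 and 0.05.

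In the transgenic comparisons the members moved little as a group. GS LRRK2 TG mice had a median TE difference from non-TG control of -0.05 in members and 0.02 in others, and GS/DA LRRK2 TG mice had -0.07 and -0.05. The controls that chose the members enter these differences, so they are descriptions. Choosing the 150 by WT TE alone gave -0.02 and -0.11. Past 0.5 log2 units in GS LRRK2 TG mice lay 2 members with higher TE, against 2.84% of all ranked transcripts, and 0 with lower TE, against 0.121%. The 2 were 4921513D23Rik, at 0.85, and Ttll5, an enzyme that adds glutamates to tubulin, at 0.56. RNA-Seq of 4921513D23Rik had an authors' mean of 1955 in control and 1157 in GS LRRK2 TG mice, while footprinting had 366 and 391, so that its RNA differed and its footprints hardly did. For Ttll5 the footprinting means were 109 and 178, and the RNA-Seq means 551 and 610.0. In GS/DA LRRK2 TG mice 0 members lay past 0.5 in either direction, against 0.0517% of all with higher and 2.12% with lower TE.

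Other members at the extremes stayed inside that limit. Fam81a had 0.49 in GS LRRK2 TG mice, and Ankrd12, mKIAA1386 and Bzrap1 had -0.43, -0.37 and -0.36. In GS/DA LRRK2 TG mice Arhgap10, a GTPase-activating protein, had 0.48 and Ankrd12 and mKIAA1386 each had 0.43, while Rasl10b, Aggf1 and Prkrir had -0.42, -0.35 and -0.31. Arhgap10, Ankrd12 and mKIAA1386 are the transcripts whose RNA-Seq libraries disagree most plainly: Arhgap10 had 8042 and 842 reads in the non-TG control and 851 and 5541 in GS/DA LRRK2 TG mice. The group medians turn with a single RNA-Seq library too. Leaving out 1 library at a time moved the median of members from -0.44 to 0.50 in GS LRRK2 TG and from -0.51 to 0.47 in GS/DA LRRK2 TG mice, and the members past 0.5 then reached 75 and 72. For GS/DA LRRK2 TG mice, libraries could also be matched to the control libraries with which they share a difference between libraries. The median TE difference of members was then -0.06, -0.15, 0.06 and -0.02, on both sides of 0 and small. GS LRRK2 TG libraries were not matched in this way, since the control libraries of that comparison were not recovered. No direction can be given for either transgenic genotype.

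LRRK2 KO mice gave the largest difference. The median TE of members was lower by 0.27 than in WT mice, with 140 of 150 below 0, beside 0.02 in the others. Members chosen by the non-TG controls alone had the same median of -0.27. RNA made the difference: the median of members was 0.31 in RNA-Seq, with 1 member below 0, and 0.04 in footprinting. Past 0.5 log2 units, 20 members had lower TE, against 1.48% of all ranked transcripts, and 0 had higher TE, against 2.07%. In RNA-Seq 5 were higher, against 0.241%, and 0 lower, against 1.67%. In footprinting 2 were higher, against 0.207%, and 0 lower, against 0.259%. Over 10 groups ranked by non-TG control TE, the median TE difference ran from -0.23 in the lowest to 0.28 in the highest, and that of RNA-Seq from 0.26 to -0.24, so members share a slope that runs through all transcripts.

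This difference rests on 1 library. Relative to the mean of both genotypes, the shallower WT RNA-Seq library held less RNA of 150 of 150 members, with a median of -0.64, while the deeper WT library had 0.19 and the LRRK2 KO libraries 0.17 and 0.14. Without the shallower WT library the median TE difference of members was 0.06 and 5 had a TE lower by more than 0.5. Without the deeper WT library it was -0.74, and 127 were lower. Between the deeper RNA-Seq libraries of both genotypes the members' median difference in RNA was -0.01, and between the shallower ones 0.74. Whether that library or the genotype set the members apart cannot be told apart with 2 libraries a group.

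Single members differed in which library was low. B3gat3, an enzyme that builds the linker of proteoglycans, had the lowest TE difference, -0.82. Its RNA-Seq reads were 625 and 496 in WT and 639 and 977 in LRRK2 KO mice, and its footprinting reads 137 and 49.3 against 114 and 37.8. Here the shallower LRRK2 KO RNA-Seq library is the high one and the footprints of the genotypes overlap. Gas2l1, which links actin to microtubules, had -0.82 as well, with RNA-Seq reads of 494 and 363 in WT and 546 and 572 in LRRK2 KO mice. Its footprinting reads were 85.7 and 62.6 in WT and 47.9 and 61.5 in LRRK2 KO mice, so that both measures separated the genotypes, the footprints barely. Atf4 had -0.77, with WT footprinting reads of 75.5 and 89.3 above the LRRK2 KO ones of 54.1 and 65.7. Its RNA-Seq reads were 869 and 380.1 in WT and 812 and 735 in LRRK2 KO mice, where the shallower WT library is low. At the other end lay 4921513D23Rik at 0.33, Fam81a at 0.27 and Fndc4, a secreted fibronectin-domain protein, at 0.25. The 4921513D23Rik footprinting reads were 106 and 103 in WT and 131 and 183 in LRRK2 KO mice, without overlap.

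**Figure D3:**
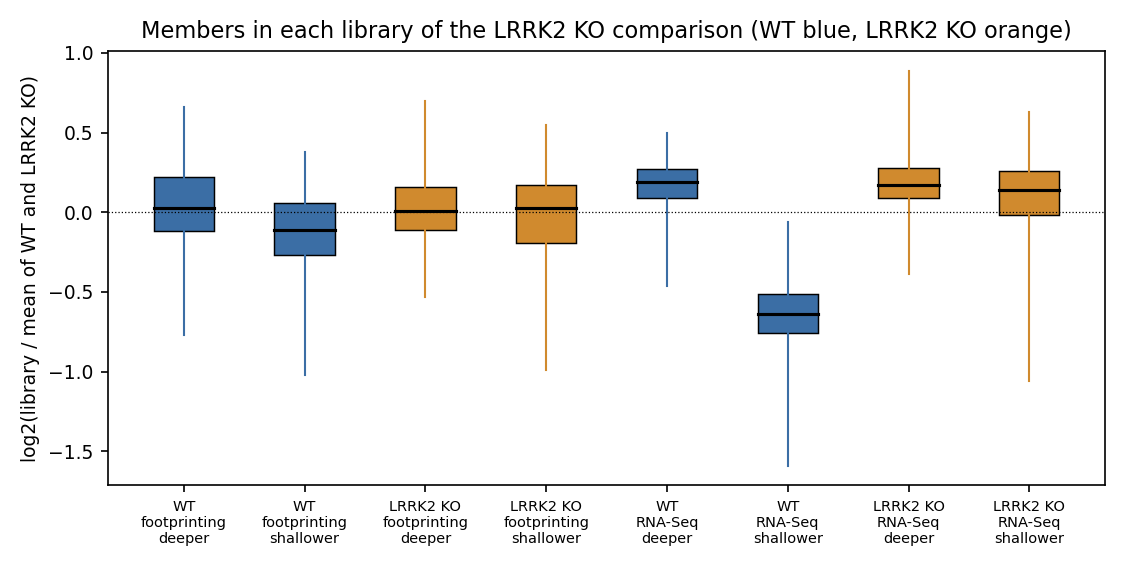
Level of the members in each recovered library of the LRRK2 KO comparison, as log2 of the library over the mean of WT and LRRK2 KO in the same assay. Boxes span the quartiles, with a line at the median and thin lines to the lowest and highest member. The shallower WT RNA-Seq library has a median of -0.64, and the other RNA-Seq libraries lie between 0.14 and 0.19.

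No member passed a test over libraries. With limma on the recovered libraries and p-values adjusted over all transcripts, 0 of 140 members resolved in GS/DA LRRK2 TG mice were called in RNA-Seq, TE or footprinting, and 0% of 8255 transcripts were called in each. At an unadjusted p under 0.05 there were 0, 0 and 2 members, among 0, 0 and 151 transcripts. In LRRK2 KO mice 0 of 149 members and 0% of 9532 transcripts were called in each measure. At an unadjusted p under 0.05 there were 0 members and 7, 4 and 16 transcripts in RNA-Seq, TE and footprinting. Lrrk2 itself was thus not called, though its footprinting reads were 400.3 and 690.1 in WT and 102 and 149.7 in LRRK2 KO mice. A fit with 2 libraries a group that misses the deleted gene can miss large changes, so 0 calls show no lack of change. Blocking on the library pairs that share a difference between libraries left 0 members called in both genotypes, and 39 members then had an unadjusted p under 0.05 in LRRK2 KO RNA-Seq, all higher (26.2%, against 4.53% of all transcripts). In TE of the same mice there were 11, all lower (7.38%, against 1.94%), and in GS/DA LRRK2 TG footprinting 24, of which 18 were lower (17.1%, against 14.1%). In GS/DA LRRK2 TG footprinting, leaving out 1 library called Ftl2, lower without the deeper and higher without the shallower non-TG control library; no other member was called. The GS LRRK2 TG comparison was not tested, since its own control libraries were not recovered. The non-TG control libraries recovered belong to the GS/DA LRRK2 TG comparison, which was normalised separately.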

How the data were processed

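The authors clipped footprinting and RNA-Seq reads, removed rRNA, aligned to mm9 with TopHat 2.0.11 and Bowtie2 2.2.2 allowing at most 1 mismatch, counted coding reads over the isoforms of a gene, dropped transcripts under 128 reads and combined libraries with DESeq 1.20. The deposited values are a signal, the mean of normalised reads per group, without an SD. The authors' folding energy (kcal/mol) is the lowest over isoforms in a UCSC annotation. Their own TE, TE difference and z score columns were not used. All 12 columns of means matched a group (0 unmatched), and ventral midbrain libraries have no table. Tables were normalised separately, so genotypes were compared within a table.

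TE was log2(footprinting mean/RNA-Seq mean) with a pseudocount of 0. Reads of single libraries were recovered where 1 pair of whole numbers fitted a mean of 2 libraries, for 97.1% to 99.9% of transcripts in 10 columns. The recovery was tested on simulated data, and reads carry counting error at the depths given. limma 3.58.1 (R 4.3.3) used log2(library value + 10) without a block, footprinting and RNA-Seq in separate fits and TE as the interaction of genotype and assay. A fold of 0.5 on the log2 scale was used for counts of means. Features came from GENCODE on NCBIM37 (mm9), for the transcript with the longest coding sequence of a symbol. Scripts used Python 3.11.15, numpy 2.4.6 and pandas 2.3.3.

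Members and gene lists were chosen with earlier results of these data known. Named are Lrrk2, the 12 members with the lowest TE and the 12 with the highest RNA-Seq level, the 5 on each side of the threshold, the 3 highest and the 3 lowest TE differences per comparison, the 5 lowest and the 5 highest folding energies, and up to 4 members per list, apart from a few left out of the text. Others named were chosen after their values were seen. Alternatives were other RNA-Seq minimums, pseudocounts, folds, choices of members, single libraries, scaling of TE and a library block.

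Alternatives added once the data had been seen were TE divided by its SD, each library left out in turn, members past the fold when chosen from the other cohort, and the fewest upstream ATGs over the coding transcripts of a gene.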

Additional observations from a re-analysis of the deposited data

How the results depend on the processing

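No paired analysis was possible because the deposited columns are group means and the recovered libraries carry no replicate numbers. No label ties a library to an animal shared by both genotypes. The limit is on pairs by replicate number or animal over a whole comparison. Ordered by mapped reads some libraries could be named, but not those of WT footprinting, which had nearly equal mapped reads, nor the non-TG controls, of which only some were combined. Each lysate served both assays. For WT mice and the non-TG controls, which footprinting library belongs with which RNA-Seq library could not be told. For the other groups an order by mapped reads could pair some of them, but this was not used. The library block named below is a paired fit, but it matches libraries by a difference they share, which is read from the values themselves. For RNA-Seq of WT and LRRK2 KO mice it matched deeper with deeper. An order by mapped reads would give those pairs the same replicate numbers. A fit with replicate numbers as the block was not run. Over all results and alternatives, 161 values were counted as near the reported one and 103 as moved. Nearness was not a check of direction, so a small difference may have changed sign and still count as near. Where no cause is named, the cause was not tested. Of the 150 members, 69 were kept with an RNA-Seq minimum of 800, where fewer transcripts are ranked. Ranking by 1 footprinting and 1 RNA-Seq library kept 81 (deeper, deeper), 99 (deeper, shallower) and 69 (shallower, deeper) in the non-TG control, and 94 (both deeper) and 61 (both shallower) in WT mice. The difference in folding energy between members and others was -58.1 with a minimum of 400, -56.6 and -57.9 with members chosen by the GS or the GS/DA LRRK2 TG table alone, -50.3 and -30.9 by the deeper RNA-Seq library of the non-TG control with the deeper or shallower footprinting library, and -77.4 and -57.9 by the deeper or the shallower WT libraries. The gap in TE in LRRK2 KO mice was -2.51 with a pseudocount of 10, and ranged over single libraries from -2.94 to -2.19 (GS LRRK2 TG), -2.81 to -1.93 (GS/DA LRRK2 TG) and -2.60 to -2.40 (LRRK2 KO).

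The median TE difference of members in LRRK2 KO mice was 0.35 in SD units, which shrink low values in the group of larger SD whatever the genotype does, so no direction is read from it. It was an alternative added with the data at hand; the left-out libraries were added in the same way. With 1 library left out the unscaled median ranged from -0.74 to 0.06, and with 1 library per group and assay from -0.89 to 0.20. In the same order the ranges were -0.44 to 0.50 and -0.44 to 0.56 in GS LRRK2 TG mice, and -0.51 to 0.47 and -1.07 to 1.03 in GS/DA LRRK2 TG mice. Members with higher TE past 0.25 numbered 16 in GS LRRK2 TG mice, 4 in GS/DA LRRK2 TG mice and 3 in LRRK2 KO mice, and with lower TE 17, 11 and 81. Past 1 there were 0 higher in GS LRRK2 TG and 0 lower in LRRK2 KO mice. Chosen by WT TE, 4 were higher in GS LRRK2 TG and 1 lower in GS/DA LRRK2 TG mice. With 1 library left out, members past 0.5 ranged from 5 to 75 higher and 2 to 68 lower in GS LRRK2 TG, 1 to 70 higher and 0 to 72 lower in GS/DA LRRK2 TG, and 0 to 5 higher and 5 to 127 lower in LRRK2 KO mice.

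With limma, the library block gave 25 calls among all transcripts in GS/DA LRRK2 TG footprinting, 12 in LRRK2 KO RNA-Seq and 15 in LRRK2 KO footprinting, and 0 among members. Leaving out 1 library gave 2 to 26 calls in GS/DA LRRK2 TG footprinting, with 0 to 1 member, and 0 elsewhere; a lone library was assumed to vary like the others. Footprints of members were few, with a lowest control or WT mean of 29.5, where counting error is large.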
